A study of Bos taurus with 8 samples.

Results

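Matrix proteases and their inhibitors were measured in the lactating mammary gland of 4 Holstein cows, each biopsied once with a full gland, 12 h since milk removal, and once with an empty gland, at 0 h. The members were chosen by name from the genes with a single annotated symbol: the matrix metalloproteinases (MMP), the ADAM and ADAMTS metalloproteinases other than ADAMTS1, the tissue inhibitors of metalloproteinases (TIMP), the serpins, and PLAU, PLAT and PLAUR. They came to 50 of 9155 genes, held by 78 of the 24016 probe sets tested, with 11 MMP, 7 ADAM, 5 ADAMTS, 4 TIMP and 20 serpin genes and the other 3. The 8 samples were hybridised to 8 single-colour arrays, and no allele or agent set the groups apart. Milk state was compared within cows, and effects of time or of an earlier biopsy cannot be told apart from it, since the sources used here do not give the order of sampling.

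MMPs, ADAMs and ADAMTS enzymes are zinc proteases: MMPs cleave collagens and other matrix proteins, many ADAMs cut membrane proteins such as growth factor precursors free from the cell surface, and ADAMTS enzymes process procollagens and proteoglycans. TIMPs block these enzymes directly, while most serpins trap serine proteases, among them the plasminogen activators PLAU and PLAT and the plasmin they make. In milk, plasmin is the main native protease and cleaves caseins, and in the mouse mammary gland matrix proteases remodel the tissue when milk removal stops. Their expression is therefore of interest in a gland in which milk has collected.

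Each value below is a log2 level of 1 probe set (a group of short probes for 1 transcript) on 1 array, or a difference between such levels, and a gene is represented by its probe set with the highest mean. Array medians lay between 7.08 and 7.24 log2. The full arrays of cows 2 and 4 stood apart: their values correlated with those of other arrays at a median r of 0.969 and 0.9753, and each of the 6 remaining arrays reached 0.9856 or more. Results are therefore given by cow. In the full array of cow 2 the platform's control transcripts were also weak at their 5' ends: their 3' minus 5' difference averaged 1.91 log2, against 0.76 to 1.22 on the other 7 arrays. Of 9 measured luminal epithelial markers, 8 lay above the median level of all probe sets. RMA values carry no detection call, and 28 of the 50 protease and inhibitor genes had a mean below that median (32.3% of all genes), where small differences may be those of background signal.

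None of the 50 genes passed the comparison of full with empty gland, in a limma fit over all 24016 probe sets with cow as a block, against 0 called (0%) over all probe sets and all genes. The fit counted 600 probe sets (2.5%) at an unadjusted p under 0.05, where about 1201 would be expected with no effect. At that unadjusted p there was 1 gene of the 50 with a higher level in full gland, ADAMTS6, against 1.13% of all genes, and 1 with a lower level, TIMP3, against 1.67%. The mean difference was above 0 for 31 of the 50 (62%; 48.6% of all genes) and below 0 for 19 (51.4% of all genes). Means above 0 were more common among dim genes: 1739 of 2955 genes dimmer than the median, against 2709 of 6200 brighter ones. Of the 50, they were found in 17 of the 28 dimmer and 14 of the 22 brighter genes. The median difference over the 50 was 0.04 log2, beside -0.0036 over all genes. The medians within cows 1 to 4 were -0.09, 0.09, 0.0049 and 0.14, and those of all genes were -0.05, 0.03, -0.02 and 0.02.

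**Figure D1:**
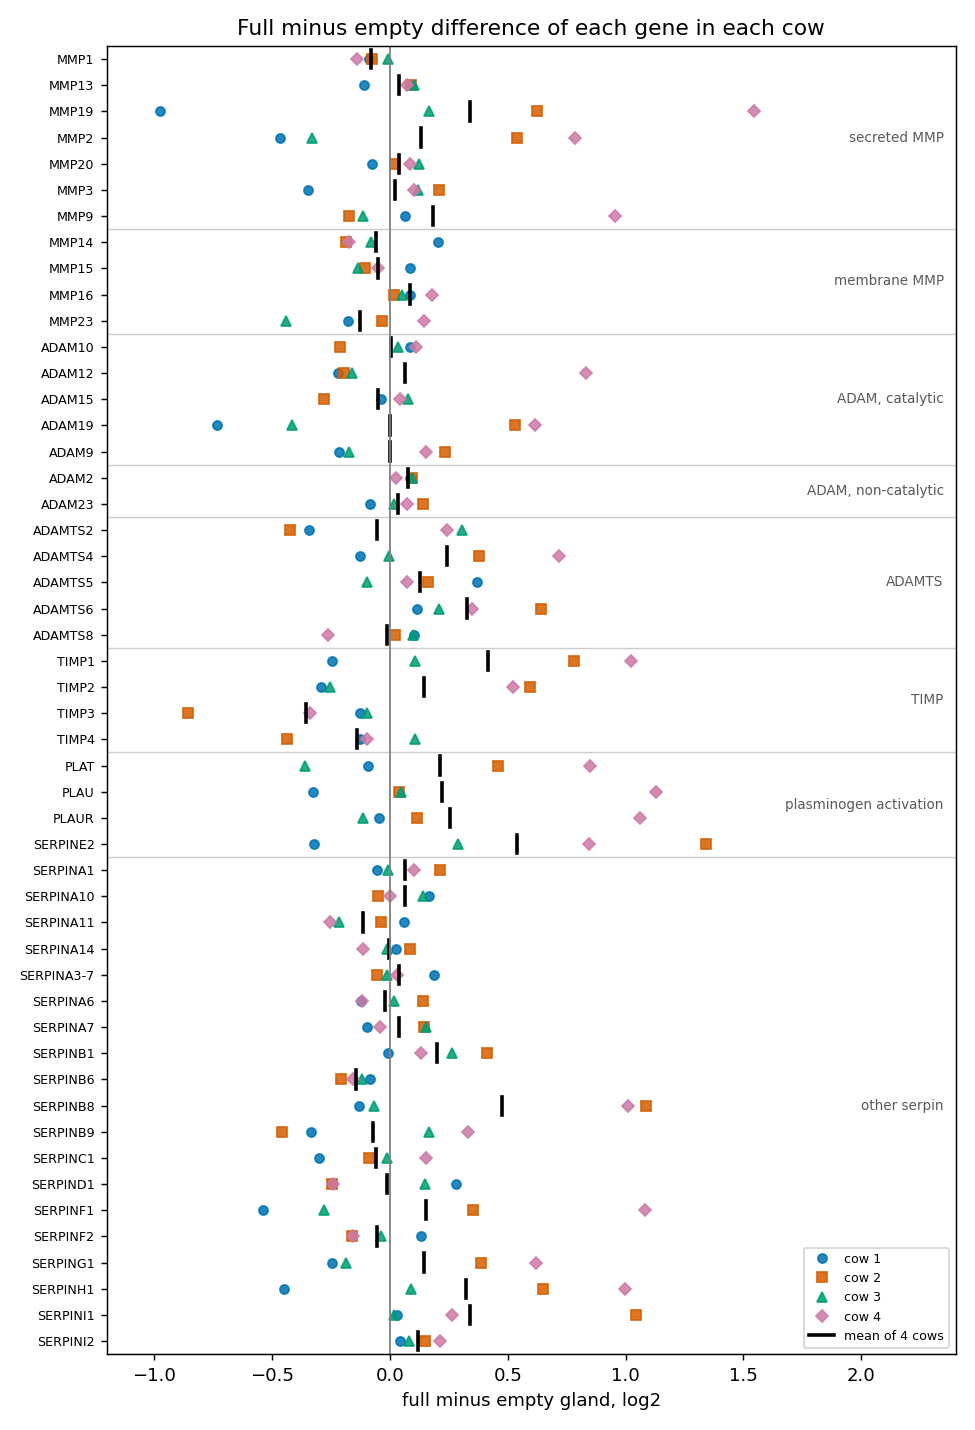
Full minus empty difference (log2, horizontal axis) of each of the 50 genes, grouped by role, with 1 symbol per cow and a black bar at the mean of the 4 cows. Points of cow 3 stay closest to 0 and those of cow 1 lie mostly left of it, while those of cows 2 and 4 reach up to 1.34 (SERPINE2) and 1.54 (MMP19).

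Plasminogen activation had the largest group median in any 1 animal, 0.96 log2 in cow 4, although the largest difference of a single gene there was that of MMP19. All 4 of its measured genes had a mean above 0, from 0.21 to 0.54 log2, and none passed. PLAU, the urokinase activator that cells bind at their surface, lay at 7.47, 7.39, 7.78 and 7.62 log2 in the empty glands of cows 1 to 4 and at 7.14, 7.43, 7.83 and 8.75 in their full glands. Only the full gland of cow 4 stood above every empty gland by more than 0.1, and the other full values lay within or below the empty range or just over it. The mean difference was 0.22 ± 0.23 log2 (limma's moderated SE, n = 4 cows; adjusted p = 0.993), and without cow 4 it was -0.08. PLAUR, the urokinase receptor, was dim and showed a like pattern, with 6.57, 6.87, 6.41 and 6.54 log2 in empty and 6.52, 6.98, 6.29 and 7.60 in full gland. Its difference was 1.06 in cow 4 and between -0.11 and 0.11 in cows 1 to 3, and the mean of 0.25 ± 0.21 (SE, n = 4 cows; limma adjusted p = 0.993) became -0.02 without cow 4.

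PLAT, the tissue-type activator, lay at 9.28, 9.34, 9.27 and 8.85 log2 in the empty glands and at 9.19, 9.80, 8.91 and 9.70 in the full glands of cows 1 to 4. The differences had opposite signs: 0.46 in cow 2 and 0.85 in cow 4, but -0.09 in cow 1 and -0.36 in cow 3. The cow 4 difference began from the lowest of the 4 empty values. SERPINE2, protease nexin-1, inhibits urokinase, plasmin and thrombin. It had 9.07, 9.61, 8.75 and 9.94 log2 in empty and 8.75, 10.95, 9.04 and 10.79 in full gland. Its mean difference of 0.54 ± 0.27 log2 (SE, n = 4 cows; 95% interval -0.12 to 1.19; limma adjusted p = 0.993) was the largest of the 50 in size, at 1.45-fold, and 3 of the 4 cows were higher. Cows 2 and 4 were also those with the higher empty levels, and without them the difference was -0.02. SERPINI1, neuroserpin, an inhibitor of PLAT, was dim and higher in all 4 cows, but its differences were 0.03 and 0.02 in cows 1 and 3, 0.26 in cow 4 and 1.04 in cow 2. SERPINF2, alpha-2-antiplasmin, differed by -0.06 ± 0.08 log2 (SE, n = 4 cows) on its brighter probe set and by 0.07 on the other.

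The TIMPs went apart. TIMP1 lay at 9.62, 9.60, 8.95 and 9.36 log2 in the empty glands of cows 1 to 4 and at 9.37, 10.38, 9.05 and 10.38 in the full glands. The full glands of cows 2 and 4 lay above every empty gland, and those of cows 1 and 3 did not. The mean difference was 0.42 ± 0.22 log2 (SE, n = 4 cows; 95% interval -0.13 to 0.96; limma adjusted p = 0.993), and a second probe set gave 0.36. TIMP2, which also takes part in the activation of MMP2 at the cell surface, was lower in cows 1 and 3, by -0.29 and -0.25, and higher in cows 2 and 4, by 0.59 and 0.52. Its empty values were 10.96, 11.10, 10.94 and 10.95 log2, a range much narrower than the full values of 10.67, 11.70, 10.68 and 11.47. The mean of 0.14 ± 0.18 turned to -0.0084 without cow 2 and to -0.27 without cows 2 and 4. One of its 3 probe sets, at a mean level of 7.10, differed by -0.58 in cow 2, where the brighter probe sets differed by 0.59 and 0.80.

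TIMP3, the TIMP that binds to the matrix and also inhibits several ADAM and ADAMTS enzymes, was lower in all 4 cows. It lay at 11.17, 11.08, 11.64 and 11.26 log2 in the empty glands and at 11.04, 10.22, 11.54 and 10.92 in the full glands. The groups overlapped because cow 3 was high in both states. The mean difference was -0.36 ± 0.14 log2 (SE, n = 4 cows; 95% interval -0.70 to -0.01; limma unadjusted p = 0.0463, adjusted p = 0.993), or 0.781-fold. Of that mean, the -0.86 of cow 2 was the largest part, with -0.13, -0.10 and -0.34 in cows 1, 3 and 4. The array of cow 2 with the weak 5' controls is the one that gave it. That array also enters the cow 2 difference of every other gene, and its part in these differences was not tested. TIMP4 had 8.53, 8.67, 8.37 and 7.99 log2 in empty and 8.40, 8.23, 8.47 and 7.89 in full gland, a mean of -0.14 ± 0.10 (SE, n = 4 cows). It was lower in 3 cows, and all 3 of its probe sets had a mean below 0, with -0.34 and -0.13 for the dimmer ones, where cow 2 again differed most (-1.22 and -0.88).

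**Figure D2:**
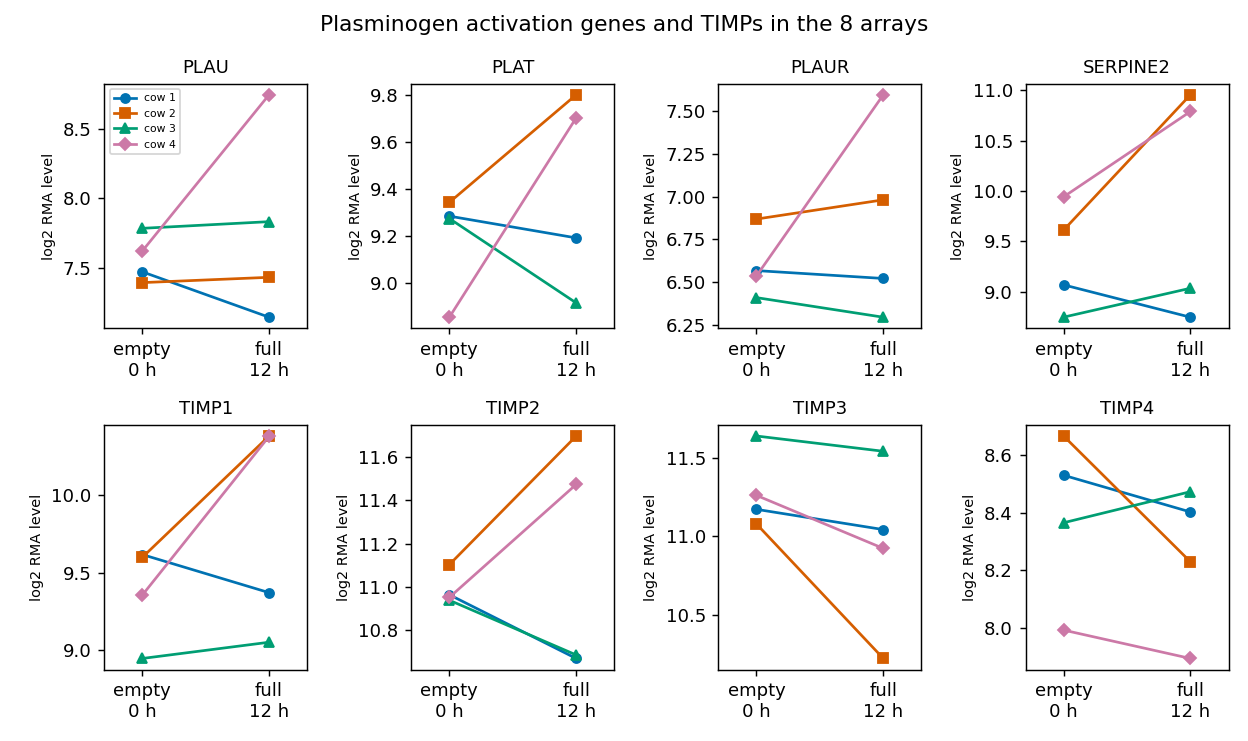
Log2 RMA level (vertical axis, its own scale in each panel) of the 4 plasminogen activation genes and the 4 TIMPs in the empty (0 h) and full (12 h) gland, with 1 line per cow. For PLAU and PLAUR only the line of cow 4 is steep, for TIMP1, TIMP2 and SERPINE2 those of cows 2 and 4 lead to the highest full values, and the TIMP3 line slopes down in each cow.

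The 7 secreted MMPs had a median difference of 0.04 log2, 6 of them above 0, and none passed; without cow 4 the median was -0.06. MMP2, gelatinase A, had 11.12, 10.95, 10.85 and 10.64 log2 in the empty and 10.66, 11.48, 10.52 and 11.43 in the full glands of cows 1 to 4. Cows 1 and 3 had lower values in full gland, by -0.47 and -0.33, and cows 2 and 4 higher ones, by 0.54 and 0.79. The mean of 0.13 ± 0.23 (SE, n = 4 cows; limma adjusted p = 0.993) therefore stood for none of the cows, and it was -0.0036 without cow 2, -0.09 without cow 4 and -0.40 without both. MMP9, gelatinase B, a protease of neutrophils and macrophages, was dim at 5.86, 5.78, 5.81 and 5.96 log2 in empty and 5.93, 5.61, 5.70 and 6.91 in full gland. Cow 4 alone differed by more than 0.2, with 0.95, and without it the mean of 0.18 became -0.08.

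MMP19, a metalloproteinase that cleaves basement membrane proteins, varied most between cows. Its empty values were 7.59, 6.96, 6.68 and 7.12 log2 and its full values 6.61, 7.58, 6.84 and 8.66, so that the difference ran from -0.98 in cow 1 to 1.54 in cow 4. The mean of 0.34 ± 0.38 (SE, n = 4 cows; limma adjusted p = 0.993) was -0.06 without cow 4 and 0.17 as the mean of both its probe sets. MMP1, interstitial collagenase, was lower in all 4 cows, from 5.56, 5.56, 5.55 and 5.64 to 5.47, 5.48, 5.55 and 5.50 log2. Its full values all lay below its empty ones as deposited, but not with array medians centred. The mean difference was -0.08 ± 0.07 (SE, n = 4 cows) at a dim signal. The stromelysin MMP3, the collagenase MMP13 and the enamel protease MMP20 were dim as well and differed by 0.02, 0.04 and 0.04 log2.

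Among membrane-anchored MMPs, 3 of the 4 had a mean below 0. MMP14, the membrane-type MMP that activates MMP2, lay at 5.91, 6.04, 5.88 and 6.04 log2 in empty and at 6.12, 5.85, 5.80 and 5.86 in full gland, a mean of -0.06 ± 0.09 (SE, n = 4 cows), and all 3 of its dim probe sets had a mean below 0. MMP15 differed by -0.05 and MMP23 by -0.13, the latter with -0.44 in cow 3. MMP16 was higher in all 4 cows, by 0.02 to 0.18 log2, and its other 2 probe sets differed by 0.18 and 0.02. The first of these 2 differed by 0.74 in cow 4 and by -0.03 to 0.02 in the other cows.

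The catalytic ADAMs had a median difference of -0.00062 log2 over 5 genes, which turned to 0.01 with repeated quantile normalization. ADAM10, the main sheddase of Notch and several growth factors, lay at 10.35, 10.66, 10.48 and 10.50 in empty and at 10.44, 10.45, 10.51 and 10.61 in full gland. Its mean difference was 0.0049 ± 0.08 log2 (SE, n = 4 cows), with a 95% interval of -0.20 to 0.21, and the sign turned with median centring and with the mean of its 3 probe sets. The dimmest of these differed by -1.10 in cow 2 and by 0.22 to 0.26 in the other cows. ADAM9, another sheddase, differed by -0.0017 on its brightest probe set, while its dimmest one (mean level 7.14) was higher in all 4 cows, by 0.31 ± 0.08 (SE, n = 4 cows). ADAM19, which cuts neuregulins, split as MMP2 did, with -0.74 and -0.41 log2 in cows 1 and 3 and 0.53 and 0.62 in cows 2 and 4. ADAM12 differed by 0.83 in cow 4 and by -0.22 to -0.16 in the other cows, and ADAM15 by -0.05 on average. The non-catalytic ADAM2, a sperm protein, and ADAM23, known from the nervous system, were dim and differed by 0.08 and 0.04 log2, ADAM2 being higher in all 4 cows.

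ADAMTS6, a secreted metalloproteinase of that family, had the smallest p among the 50 genes on their brightest probe sets. Dimmer probe sets of ADAM9 and ADAMTS5 had smaller unadjusted limma p, 0.0066 and 0.0165, both with an adjusted p of 0.993. ADAMTS6 lay at 5.33, 5.66, 5.44 and 5.45 log2 in the empty and at 5.45, 6.30, 5.65 and 5.80 in the full glands of cows 1 to 4. Each cow was higher in full gland, by 0.11, 0.64, 0.21 and 0.35, and the groups overlapped. The mean difference was 0.33 ± 0.10 log2 (SE, n = 4 cows; 95% interval 0.07 to 0.58; limma unadjusted p = 0.0203, adjusted p = 0.993), or 1.26-fold, at a signal below the median of all probe sets. ADAMTS4 and ADAMTS5 are aggrecanases, which cleave the core proteins of aggrecan and versican. ADAMTS4 differed by -0.13, 0.38, -0.0060 and 0.72 in cows 1 to 4, and ADAMTS5 by 0.37, 0.16, -0.10 and 0.07. A second probe set of ADAMTS5 was higher in all 4 cows, by 0.12 to 0.46 and 0.27 on average. The procollagen N-proteinase ADAMTS2 differed by -0.05 ± 0.15 (SE, n = 4 cows), with -0.34 and -0.42 in cows 1 and 2 and 0.31 and 0.24 in cows 3 and 4, and ADAMTS8 by -0.01.

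The 19 serpins other than SERPINE2 had a median difference of 0.04 log2, with 11 above 0 and 8 below, and none passed. SERPINB6, an intracellular inhibitor of serine proteases, lay at 9.28, 9.30, 9.30 and 9.40 in empty and at 9.19, 9.10, 9.18 and 9.24 in full gland. As deposited, every full value lay below every empty value. The difference of -0.14 ± 0.07 log2 (SE, n = 4 cows, 95% interval -0.30 to 0.02, limma adjusted p = 0.993) was small, at -0.21 to -0.09 by cow. In cow 1 the array median fell by nearly as much as SERPINB6 did, from 7.21 in empty to 7.14 in full gland. SERPINB6 and MMP1 were the 2 of 50 genes whose groups did not overlap as deposited (4%), against 0.71% of all genes. With array medians centred, the groups of both genes overlapped, and the share over all genes was not counted in that setting. SERPINB1, an inhibitor of neutrophil elastase, had 10.08, 9.75, 9.77 and 10.13 log2 in empty and 10.07, 10.16, 10.03 and 10.26 in full gland. It was higher in 3 cows and differed by -0.0068 in cow 1, with a mean of 0.20 ± 0.09 (SE, n = 4 cows; limma adjusted p = 0.993). A second, dimmer probe set differed by 0.03 on average and by -0.46 in cow 2, where the brighter one gave 0.41, and the mean of both was 0.11.

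SERPINB8, an inhibitor of furin, lay at 7.41, 7.03, 6.96 and 7.41 log2 in empty and at 7.28, 8.12, 6.89 and 8.42 in full gland. Cows 2 and 4 were higher by 1.09 and 1.01 and cows 1 and 3 differed by -0.13 and -0.07, which gave 0.47 ± 0.25 on average (SE, n = 4 cows; limma adjusted p = 0.993) and -0.10 without cows 2 and 4. SERPINH1, the collagen chaperone HSP47, had 9.86, 9.83, 9.25 and 9.61 log2 in empty and 9.41, 10.48, 9.34 and 10.60 in full gland, or differences of -0.45, 0.65, 0.09 and 1.00. SERPINF1, pigment epithelium-derived factor, a serpin that inhibits no protease, had 10.25, 10.56, 9.65 and 10.18 in empty and 9.71, 10.92, 9.37 and 11.26 log2 in full gland. Its mean difference of 0.15 ± 0.27 (SE, n = 4 cows) was -0.16 without cow 4 and -0.41 without cows 2 and 4. SERPING1, the inhibitor of the complement protease C1, split the same way, with -0.24 and -0.19 in cows 1 and 3 and 0.38 and 0.62 in cows 2 and 4, but its second probe set gave -0.23 in cow 2.

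Of the serpins not yet named, SERPINI2 was dim and higher in all 4 cows, by 0.04 to 0.21 log2. The serpins that the liver secretes into plasma, SERPINC1 (antithrombin), SERPIND1 (heparin cofactor II) and SERPINA10 (an inhibitor of clotting factor X), differed by -0.06, -0.01 and 0.06 at dim signals. SERPINA6 and SERPINA7, carriers of cortisol and thyroid hormone, differed by -0.02 and 0.04, and SERPINA14, the uterine milk protein, by -0.0042, all dim. SERPINA3-7 belongs to a cluster of near-identical bovine genes, so its signal may be shared with others, and its 2 probe sets differed by 0.04 and -0.09. SERPINB9, the inhibitor of granzyme B, differed by -0.34 and -0.46 in cows 1 and 2 and by 0.17 and 0.33 in cows 3 and 4.

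**Figure D3:**
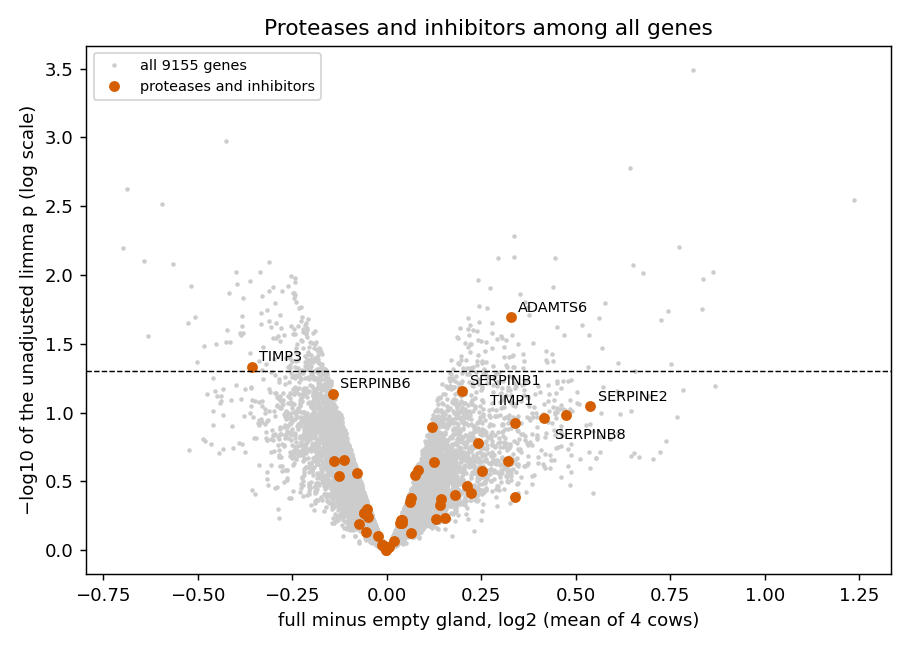
Mean full minus empty difference (log2, horizontal axis) against -log10 of the unadjusted limma p (vertical axis) for the 50 protease and inhibitor genes (orange) and all 9155 genes (grey); the dashed line marks an unadjusted p of 0.05. ADAMTS6 and TIMP3 are the orange points above the line, and SERPINE2 lies furthest to the right of the orange points at 0.54.

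Over the 50 genes, 8 shared a direction in all 4 cows (16%; 10.7% of all genes). Of these, 5 were higher (3.59% of all genes), namely ADAMTS6, MMP16, ADAM2, SERPINI1 and SERPINI2, all with a dim signal. Over all genes, 172 of the 2955 dim ones were higher in all 4 cows and 157 of the 6200 brighter ones. With median centring, ADAMTS6, MMP16 and SERPINI2 stayed higher in all 4 cows, ADAM2 and SERPINI1 did not, and SERPINB1 joined them. With repeated quantile normalization only SERPINI1 dropped out, and SERPINB1 joined. With the mean of probe sets only MMP16 dropped out, and ADAM9 and ADAMTS5 joined. ADAMTS6 and SERPINI2 stayed in each of these settings. The 3 lower ones (7.11% of all genes) were TIMP3, SERPINB6 and MMP1. A split by animal was more common, as it was over all genes, and so was not particular to the 50. Higher in cows 2 and 4 and lower in cows 1 and 3 were 11 genes (22%, 17.3% of all genes). They were MMP2, ADAM9, ADAM19, ADAMTS4, TIMP2, PLAT, PLAUR, SERPINA1, SERPINB8, SERPINF1 and SERPING1. The opposite split held for 2, SERPINA10 and SERPIND1 (8.88% of all genes). These were picked out after their values were seen.

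Within cow 4, 15 of the 50 genes were more than 1.5-fold higher in full gland (30%), against 6.73% of all genes, and 0 were lower by that fold, against 1.46%. They were MMP2, MMP9, MMP19, ADAM12, ADAM19, ADAMTS4, TIMP1, PLAU, PLAT, PLAUR, SERPINE2, SERPINB8, SERPINF1, SERPING1 and SERPINH1. In cow 2, 8 genes were higher by that fold (16%; 7.89% of all genes) and 1, TIMP3, was lower (4.47%), and 5 of the 8 were also among those of cow 4: MMP19, TIMP1, SERPINE2, SERPINB8 and SERPINH1. Cow 1 had 0 higher (0.218% of all genes) and 2 lower, MMP19 and ADAM19 (0.907%), and cow 3 had 0 in either direction (0.273% and 0.35%). A difference within 1 cow has 1 array per state and no replicate check. Those of cow 2, higher or lower, rest on the full array with the weak 5' controls, and the part of that was not tested. The SD of the 50 differences was 0.25, 0.42, 0.17 and 0.46 log2 in cows 1 to 4, against 0.19, 0.40, 0.17 and 0.33 over all genes.

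Some lists of cell type markers had a median difference above 0 in both cows 2 and 4, and others did not. Of 13 fibroblast and matrix markers, 12 were higher in the full gland of cow 4 and 10 in that of cow 2, but 1 in cow 1 and 4 in cow 3, with medians of 0.61, 0.17, -0.39 and -0.09 log2 in that order. Their summed log2 level ran from 132.7 to 138.3 in empty and from 131.7 to 146.5 in full gland, and 12 of the 13 lay above the median of all probe sets. Myeloid markers had medians of -0.33, 0.26, -0.13 and 0.81 in cows 1 to 4, with 7 of 8 higher in cow 4, and summed levels of 64.1 to 67.2 in empty and 63.6 to 71.0 in full gland. Myoepithelial markers had medians of -0.01, 0.18, -0.15 and 0.67, with all 9 higher in cow 4, and summed levels of 87.4 to 91.3 and 87.1 to 96.9. T and natural killer cell markers had medians of -0.17, 0.34, -0.05 and 0.34.

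The 9 luminal markers had a median of -0.06 in cow 4 and 0.11 in cow 2. Their summed level was 92.6 to 94.6 in empty gland, and 95.4 and 96.8 in the full glands of cows 2 and 4. Single markers spread widely, from -0.94 for MUC1 to 1.19 for KRT18 in cow 2. In cow 4 they ran from -0.46 for MUC1 to 1.36 for KRT18. Endothelial markers differed by -0.34 in cow 2 and 0.09 in cow 4 at the median, and those of neutrophils by -0.12 and 0.11. Skeletal muscle markers had a median of -0.13 in cow 2 and 0.23 in cow 4. In cow 4, 5 of 8 were higher, from -0.37 for NEB to 2.94 for DES, and NEB was lower in all 4 cows. Adipocyte markers had medians of -0.22 in cow 2 and -0.04 in cow 4, and B or plasma cell markers 0.0049 and 0.30. The part of any of these in the protease and inhibitor differences was not tested. In bulk tissue, fewer cells of a type and less RNA per cell cannot be told apart.

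**Figure D4:**
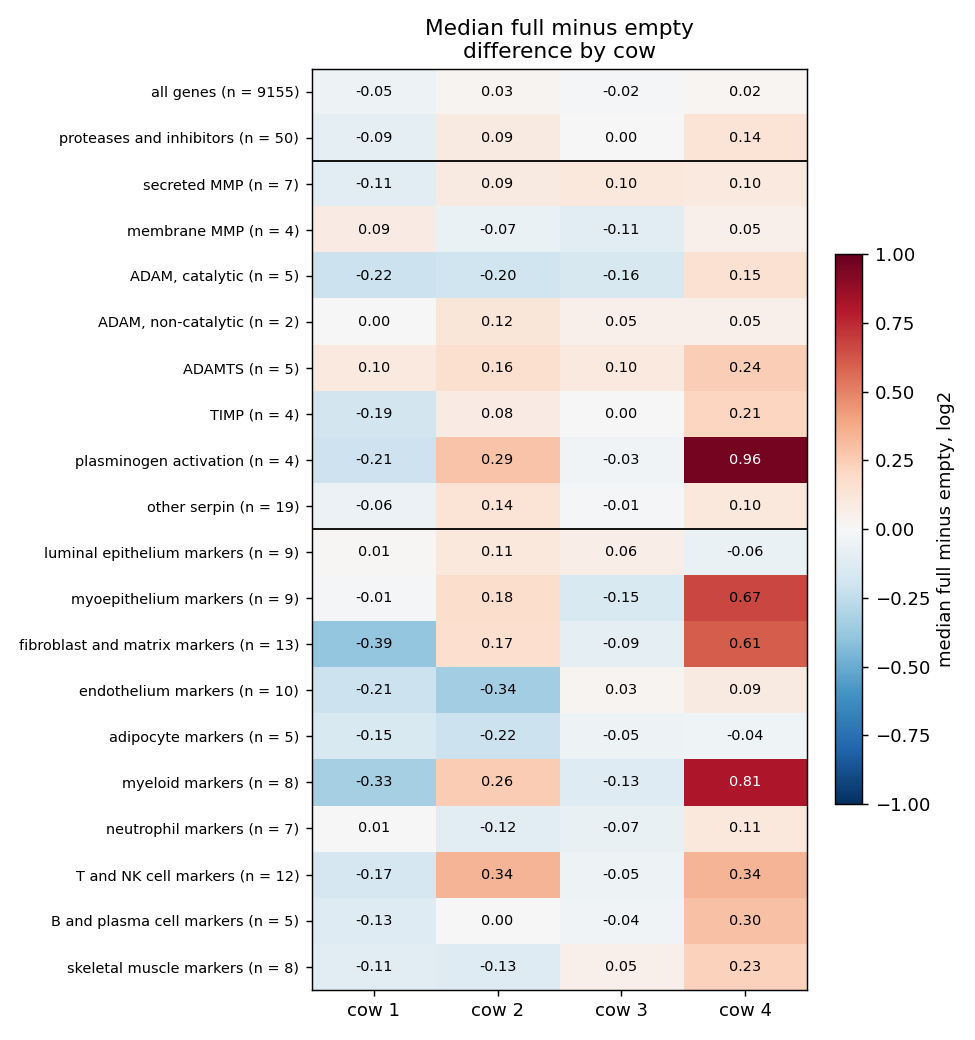
Median full minus empty difference (log2, colour and printed value) in each cow for all genes, the 50 protease and inhibitor genes, their role groups and 10 lists of cell type markers. The plasminogen activation group reads 0.96 in cow 4, next to 0.81 for myeloid, 0.67 for myoepithelial and 0.61 for fibroblast and matrix markers in the same column.

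Leaving cows out changed how many genes reached an unadjusted p under 0.05. Without cow 1, 7 genes had a higher level at that limma p (14%; 3.09% of all genes) and 0 a lower one (1.9%). They were MMP19, ADAMTS6, TIMP1, SERPINE2, SERPINB1, SERPINB8 and SERPINH1, with a smallest adjusted p of 0.832. Without cows 2 and 4, 6 had a lower level (12%; 7.68% of all genes) and 0 a higher one (1.97%). They were MMP2, MMP23, ADAM19, TIMP2, SERPINF1 and SERPING1, with a smallest adjusted p of 0.514 in a fit of 4 arrays. Without cow 2 only ADAMTS6 remained (0.721% higher and 1.94% lower over all genes), without cow 3 ADAMTS6 and TIMP3 (1.85% and 1.46%), and without cow 4 neither (0.328% and 0.765%). The same 4 plasminogen activation genes had a median of 0.24 log2 over all cows, 0.38 without cow 1, -0.0070 without cow 4 and -0.11 without cows 2 and 4.

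Levels also differed between animals. SERPINA11, a serpin of the same clade as SERPINA1, passed the limma F-test for cow (adjusted p = 0.0321; 0.437% of probe sets and 0.481% of genes were called). It lay at 8.89 and 8.85 log2 in the empty and full gland of cow 2, but at 7.75 and 7.81 in cow 1, 7.59 and 7.37 in cow 3 and 7.76 and 7.51 in cow 4. Its milk state difference was -0.11 ± 0.08 (SE, n = 4 cows; 95% interval -0.32 to 0.09; limma adjusted p = 0.993). No cow difference was called when any 1 cow was left out, or after repeated quantile normalization.

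SERPINA1, alpha-1-antitrypsin, the main plasma inhibitor of neutrophil elastase, was also high in both samples of cow 2, at 10.46 and 10.67 log2, against means over both samples of 9.81 to 9.95 in the other cows. MMP13 was high in both samples of cow 4, at 5.95 and 6.02 against 5.09 to 5.36, at a dim signal. Neither passed the limma F-test, with adjusted p of 0.112 and 0.0885. SERPINA1 differed between states by 0.06 ± 0.08 (SE, n = 4 cows; limma adjusted p = 0.993), and by 0.04 as the mean of its probe sets. At an unadjusted p under 0.05 the cow terms counted 10 of the 50 genes (20%; 16.9% of all genes). Such a test speaks only of these 4 animals, each with 2 arrays.

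**Figure D5:**
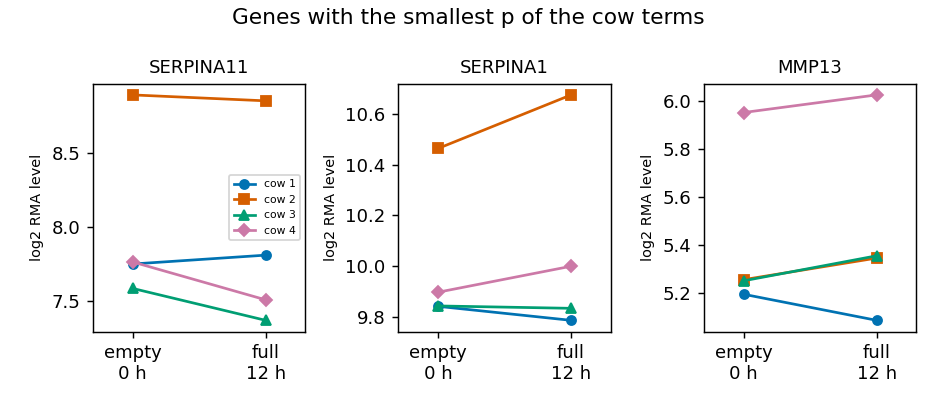
Log2 RMA level (vertical axis, its own scale in each panel) of SERPINA11, SERPINA1 and MMP13 in the empty (0 h) and full (12 h) gland, with 1 line per cow. Cow 2 lies above the other cows in both states for SERPINA11 and SERPINA1, and cow 4 for MMP13.

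Of 4 lists of genes that work with these proteases, none had a member that passed over all probe sets. The genes named from each list are those with its smallest unadjusted limma p, so they do not stand for the list. Of all genes, 48.6% had a mean above 0. Partners of the plasmin system had a median of 0.04 log2 over 13 measured genes, 7 above 0, with the clotting initiator F3 at 0.77 ± 0.19 (SE, n = 4 cows) and the protease-activated receptor F2RL1 at -0.15. Other matrix enzymes had 0.05 over 18 genes, 11 above 0, with ADAMTS1 at 0.81 ± 0.11 (SE, n = 4 cows; limma adjusted p = 0.993) and the cathepsin CTSL at -0.25. ADAMTS1 was higher by 0.75, 0.63, 0.70 and 1.16 in cows 1 to 4. Inhibitors and regulators outside the named families had 0.04 over 11 genes, with THBS2 at 0.74, from -0.92 in cow 1 to 1.94 in cow 4, and the MMP inducer BSG at -0.20. Substrates and cofactors of ADAMs had 0.10 over 14 genes, 12 above 0, with medians of -0.11, 0.10, 0.05 and 0.41 in cows 1 to 4. TSPAN5, a tetraspanin that guides ADAM10, was higher in all 4 cows by 0.45 ± 0.11 (SE, n = 4 cows, limma adjusted p = 0.993). The growth factor AREG had 0.45 ± 0.29, with -0.36, 1.28, -0.10 and 0.98 in cows 1 to 4.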

How the data were processed

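Every probe set has 1 log2 expression value on each array in the table the authors deposited. RMA is the method that the submitters' processing notes name, with no version. Of 24128 probe sets, 112 platform controls were left out, and 24016 were tested. Genes were named from the platform annotation where it gives a single symbol (13292 probe sets), checked through entrez numbers against RefSeq genes of ARS-UCD2.0: all 50 members matched and 0 symbols changed. No sequence or coordinate was used.

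State and cow were fixed terms in limma 3.58.1 (R 4.3.3; lmFit and eBayes, two-sided, 3 residual and 2.81 prior degrees of freedom), with Benjamini-Hochberg adjustment over all probe sets at 0.05. Same-numbered samples come from the same cow, and their deviations from the group means correlated at r = 0.457, 0.319, 0.597 and 0.525. An exact sign-flip test with 4 pairs cannot go below 0.125. The fit was run on simulated data with independent noise at each value, a setting without arrays that stand apart. That run is therefore no check of the fit on these arrays. Tables used pandas 2.3.3 in Python 3.11.15.

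The members and lists were chosen with earlier results of these data known. Sample values, statistics or both were given for the 5 genes per direction with the smallest p. The same holds for fixed plasminogen, TIMP, gelatinase, sheddase and chaperone genes, the 3 widest ranges over cows and the 3 smallest cow p. Genes sharing a direction in all cows were also named, and other members and markers were described after their values were seen. Alternatives were other blocks, centring, repeated quantile normalization, brighter probe sets, another prior, probe set means, other thresholds and leaving out cows.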

Additional observations from a re-analysis of the deposited data

Results flagged for a closer look

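In 8 of the 100 groups of 4 samples (full or empty, 50 genes), 1 sample lay far from the other 3, with a gap to the nearest of them that took a share of the group's range above Dixon's critical value; chance gives about 5 such groups in 100. Only 1 was in full gland: MMP3 in cow 1, at 5.48 log2 against 5.94 to 5.95 (share of the range 0.976). In empty gland, MMP3 was low in cow 2 (5.73 against 5.82 to 5.84; 0.878) and PLAT low in cow 4 (8.85 against 9.27 to 9.34; 0.859). High values in empty gland were those of MMP1 in cow 4 (5.64 against 5.55 to 5.56; 0.884), MMP13 in cow 4 (5.95 against 5.20 to 5.26; 0.92) and TIMP2 in cow 2 (11.10 against 10.94 to 10.96; 0.846). SERPINA1 (10.46 against 9.84 to 9.90; 0.911) and SERPINA11 (8.89 against 7.59 to 7.76; 0.863) were high in the empty gland of cow 2.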

How the results depend on the processing

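With 8 arrays only large differences could pass, and 0 of the 50 genes passed in limma under any alternative, where the adjusted p of the 27 named genes ran from 0.514 to 1; at a threshold of 0.10 and with a 1.5-fold minimum at an unadjusted p of 0.05 the count was 0 as well. At that unadjusted p (1 higher and 1 lower with all cows), no replicate block gave 0 and 0, repeated quantile normalization 0 lower, brighter probe sets only 0 higher, the trend and robust prior 2 higher, and leaving out cows 2 and 4 gave 0 higher and 6 lower. Leaving out each cow gave 0 to 7 higher and 0 to 1 lower. The pairing by cow otherwise changed no call. Genes higher in every cow used (5) became 0 among the brighter probe sets, as all 5 were dim. Without cows 2 and 4 the higher ones came to 9 and those lower (3) to 17. Leaving out each cow gave 6 to 15 higher and 3 to 7 lower. Fewer cows share a direction more often by chance alone, and the shares over all genes are not given for these settings. These counts are therefore no result about the 50 genes. The call of SERPINA11 between cows (1 gene) became 0 after repeated quantile normalization and 0 without any 1 cow. The median over the 50 ran from -0.0023 (without cow 4) to 0.08 (without cow 1) with a cow left out. The cause of these shifts, among them the smaller number of arrays or genes, was not tested.

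Of the 27 named genes, 26 kept their sign under median centring, repeated quantile normalization and the mean of probe sets (the last changes only the 10 with several probe sets); the other alternatives with all cows leave the difference as it is. ADAM10 turned to -0.0123 with median centring and -0.0448 with the mean of its probe sets. Without cows 2 and 4 the sign turned for 15: MMP13 -0.0022, MMP14 0.0617, MMP19 -0.40, MMP2 -0.40, MMP9 -0.0259, PLAT -0.23, PLAU -0.14, PLAUR -0.0805, SERPINA1 -0.0322, SERPINB8 -0.10, SERPINE2 -0.0171, SERPINF1 -0.41, SERPINH1 -0.18, TIMP1 -0.0703 and TIMP2 -0.27. With 1 cow left out in turn, the sign also turned for 8: ADAM10 ran from -0.0300 to 0.0769, MMP19 from -0.0622 to 0.778, MMP2 from -0.0862 to 0.331, MMP9 from -0.0756 to 0.300, PLAU from -0.0806 to 0.405, PLAUR from -0.0161 to 0.376, SERPINF1 from -0.156 to 0.384 and TIMP2 from -0.0084 to 0.288.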
